A study of Mus musculus with 8 samples.

Results

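The genes described here carry the type I interferon signal: the ligand gene Ifnb1, the receptor chain genes Ifnar1 and Ifnar2, the receptor kinase genes Jak1 and Tyk2, the transcription factor genes Stat2 and Irf9, and the interferon regulatory factor genes Irf1 and Irf7. They were taken by symbol, 9 of the 52636 genes in the table, and all 9 were found. RNA was sequenced from mouse liver endothelial cells in culture, labelled WT or dKO, each left without cytokines or given IL1B and TNFA for 16 hours, with 2 libraries in each of 4 groups. The study's design text names deletion of the ETS factor genes Erg and/or Fli1 with 4-OHT, the active form of tamoxifen, for 48 hours, and 7 days of culture from its addition. The labels expand dKO no further, give no Cre driver, strain, sex or age, and place 4-OHT in the mice in another field. They do not say whether WT cells also received 4-OHT, nor whether replicates stem from different mice or dishes, so the spread behind each p-value may be technical.

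Interferon-β binds a receptor built from IFNAR1 and IFNAR2, on which the kinases TYK2 and JAK1 sit. These phosphorylate STAT proteins, among them STAT2, which joins IRF9 in ISGF3, a complex that binds the interferon-stimulated response element (ISRE) of antiviral genes. STAT2, IRF9 and IRF7 are themselves products of such genes, while IRF1 is induced through the GAS element and through NF-kB. In endothelial cells, TNFA can start this loop by inducing a small amount of interferon-β.

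Promoter letters are shown for 3 members that hold matches. These are the ligand, the ISGF3 subunit Stat2, whose cytokine response passed the test in WT alone, and Irf1, whose response passed in both genotypes. Irf9 and Irf7 also passed in WT alone, and Ifnar1 in both genotypes, and their letters are not shown. Each line holds the 250 bases before a RefSeq transcript start on GRCm38.p6, 5′ to 3′ on the gene's strand: Ifnb1 at chr4:88522795-88523044 (minus strand), Stat2 at chr10:128270248-128270497 (plus strand) and Irf1 at chr11:53769764-53770013 (plus strand). None of these stretches overlaps an exon in GENCODE M21. Capitals mark matches to the kappaB consensus in Ifnb1, to the ISRE in Stat2, and to the GAS element and then the kappaB consensus in Irf1.
Ifnb1: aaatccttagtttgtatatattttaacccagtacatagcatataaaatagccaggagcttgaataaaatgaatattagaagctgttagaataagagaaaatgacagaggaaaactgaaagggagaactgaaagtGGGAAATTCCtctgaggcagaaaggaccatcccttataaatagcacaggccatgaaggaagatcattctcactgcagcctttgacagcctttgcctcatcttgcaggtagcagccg
Stat2: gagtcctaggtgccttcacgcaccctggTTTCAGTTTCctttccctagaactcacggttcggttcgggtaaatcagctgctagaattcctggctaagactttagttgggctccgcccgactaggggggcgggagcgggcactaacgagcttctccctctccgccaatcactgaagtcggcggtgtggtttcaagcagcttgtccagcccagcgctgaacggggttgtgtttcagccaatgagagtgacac
Irf1: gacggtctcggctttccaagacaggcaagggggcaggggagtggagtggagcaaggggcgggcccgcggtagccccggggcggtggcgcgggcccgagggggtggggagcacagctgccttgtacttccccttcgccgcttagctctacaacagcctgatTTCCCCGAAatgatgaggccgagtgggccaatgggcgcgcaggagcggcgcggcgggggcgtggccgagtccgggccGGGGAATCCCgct

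The motifs searched on both strands were GAS (TTCNNNGAA), ISRE (GAAA, any 2 bases, GAAA), the kappaB consensus and an ETS core (CCGGAA), in windows of 250 bases before to 50 after each RefSeq start. Of 32817 such windows of all genes, 8.29% held the GAS letters, 3.43% the ISRE, 4.5% kappaB and 14.9% the ETS core. Irf1 held a GAS element beginning 90 bases before its start and 1 kappaB site, read on both strands, beginning 13 bases before it. Ifnb1 held a kappaB site beginning 116 bases before its start, and Stat2 an ISRE on its minus strand beginning 222 bases before its start. GAS letters also stood in Ifnar1 and Ifnar2, and ETS letters in Ifnar1 and, after the start, in Stat2. The windows of Jak1, Tyk2, Irf7 and Irf9 held none of the 4 motifs. Members matched 11 windows, since Irf1 and Irf9 have 2 starts each. Of these 11, 3 held GAS letters, 1 the ISRE, 2 kappaB and 2 the ETS core. The window of the other Irf1 start held none of the 4 motifs. Matches are letters only, not shown binding sites, and a link between them and the cytokine responses was not tested.

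Library totals ran from 23009062 to 26944030 counts. Levels are in CPM, the count of a gene relative to the TMM-scaled library size, and are given for replicate 1 and then replicate 2. Adjusted p-values come from the quasi-likelihood test of edgeR, corrected by Benjamini-Hochberg over 15698 genes and read at a threshold of 0.05. Erg lay between 186 and 208 CPM in WT and between 34.7 and 91.3 CPM in dKO libraries, and Fli1 between 91.5 and 177 CPM and between 12.4 and 62.5 CPM, with no overlap. Neither passed the test between genotypes (adjusted p = 0.0864 for Erg and 0.0678 for Fli1 at rest, 0.0538 and 0.0562 with cytokines). dKO replicate 2 had more of both than dKO replicate 1, with and without cytokines. Of 12 leukocyte markers, 1 or 2 reached 1 CPM in a group and 6 to 8 had 0 counts. Their summed level lay between 2.55 and 6.62 CPM over all libraries, and Cd3e, Clec4f, Nkg7 and Siglech, the last a marker of plasmacytoid dendritic cells, had 0 counts in all 8. The 8 endothelial markers all reached 1 CPM in every group. Their sums were 7766 to 7811 CPM in resting WT and 4411 to 4472 in WT with cytokines. In dKO they were 1386 to 2760 at rest and 1244 to 2057 with cytokines. In WT, Eng (mean 3284 and 991 CPM without and with cytokines) and Pecam1 (1583 and 814) fell by the most CPM, while Cdh5 did not fall (1270 and 1416). Cldn5, at a lower level, fell from 24.8 to 7.9 CPM. Markers of fibroblasts, stellate cells and pericytes, of which 6 of 8 reached 1 CPM in every group, summed to 9200 to 10840 CPM in WT and 13110 to 18780 CPM in dKO libraries. Dcn carried most of that sum. Other members differed more in mean level between resting WT and resting dKO. Pdgfra had 2.87 and 774 CPM, Col3a1 25.6 and 1082, Pdgfrb 3.9 and 62.8 and Lum 124 and 759. Rgs5 went the other way, with 8.3 and 1.93 CPM, and Des and Lrat stayed under 1 CPM in both groups. The 6 markers of liver sinusoidal endothelium summed to 1934 to 2153 CPM in resting WT, 1689 to 1716 in treated WT, 61.9 to 677 in resting dKO and 37.6 to 508 in treated dKO. In these groups 4, 3, 3 and 2 of them reached 1 CPM. Stab1 made up most of the WT sums, with a mean of 1895 CPM without and 1595 with cytokines. Lyve1 also changed little there (112 and 105), while Clec4g fell from 31.6 to 0.142 CPM. Stab2 was near 0 and not lower in resting dKO (0.897 CPM) than in resting WT (0.784). The part of these shifts in the differences between genotypes below was not tested, and in bulk samples fewer responding cells and less RNA per cell cannot be told apart.

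Ifnb1 (ENSMUSG00000048806, GRCm38 chromosome 4, 88522025 to 88522774, minus strand) encodes interferon-β. It was read only in WT cells given cytokines, with 10 counts in replicate 1 and 2 in replicate 2, and had 0 counts in the other 6 libraries. As a group level this was 0.249 CPM (95% Poisson interval 0.129 to 0.435, counting error only) against limits, at 3 counts over the group, of 0.0529 CPM in resting WT, 0.0646 in resting dKO and 0.0672 in dKO with cytokines. That level was 4.7 times the limit in resting WT and 3.7 times the limit in dKO cells with cytokines. These are ratios of an estimate to a limit, not lower bounds. Both rest on replicate 1, since replicate 2 alone (0.0785 CPM) lay under its own limit of 0.118 CPM at 3 counts. The gene did not pass the filter on low counts. Fitted without that filter, its adjusted p was 0.169 for cytokines in WT and 0.14 for dKO against WT with cytokines (edgeR). Of 19 other interferon ligand genes (type I, II and III), 17 had 0 counts in all 8 libraries, Ifna13 had 1 count and Ifnz had 4, so none was tested.

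**Figure D1:**
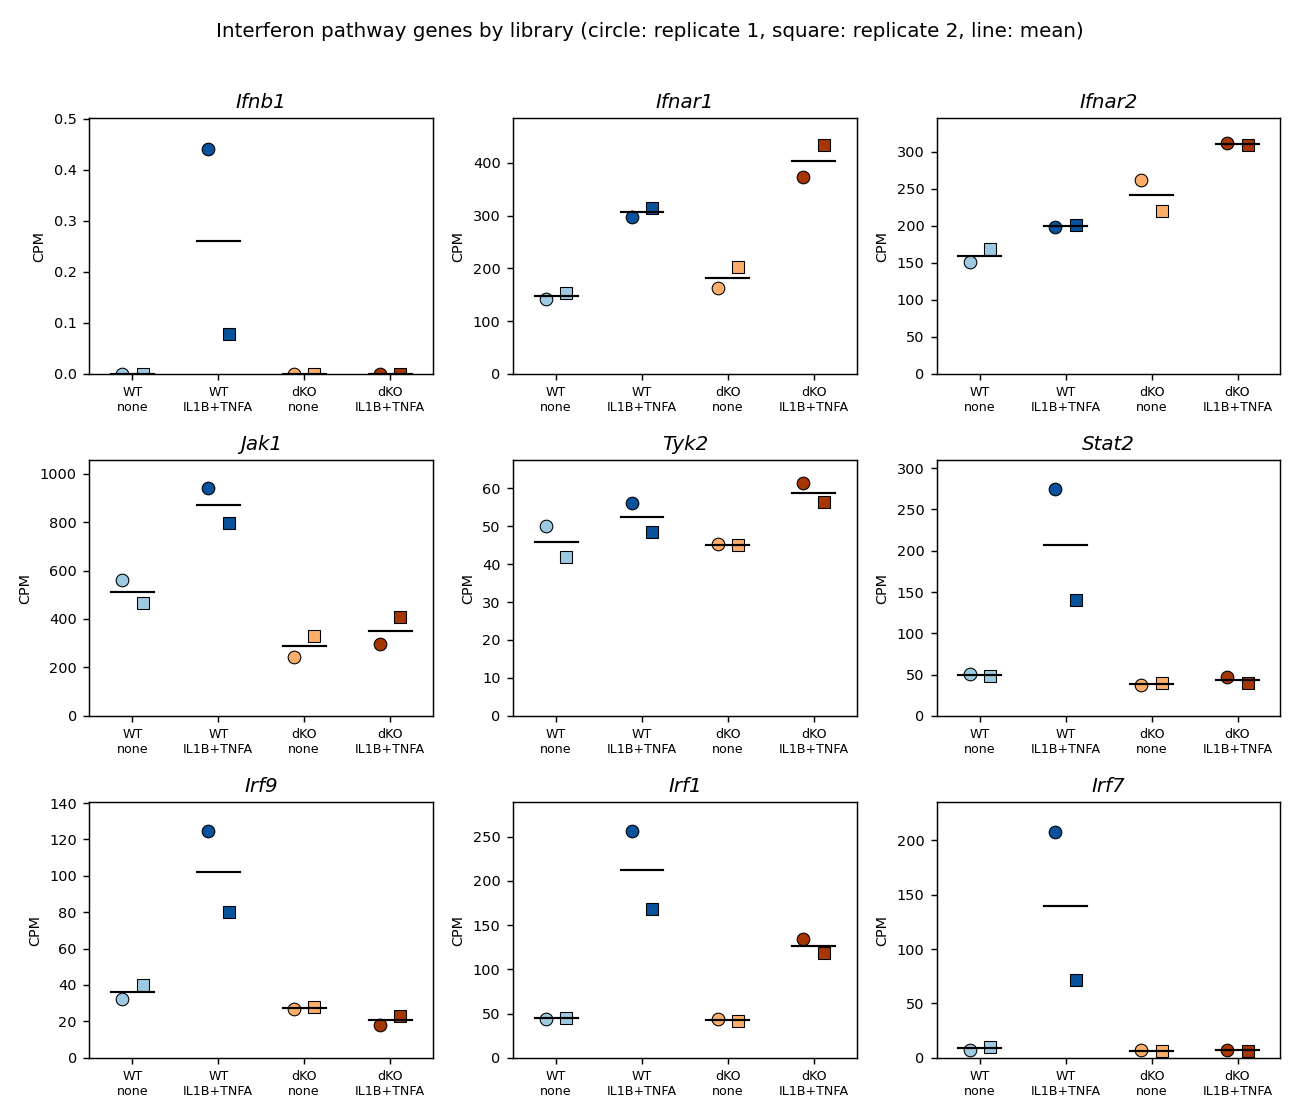
CPM (vertical axes, from 0) of the 9 genes in each of the 8 libraries, with circles for replicate 1, squares for replicate 2 and a line at the mean of the 2. Stat2, Irf9 and Irf7 stand high only in the WT libraries given IL1B and TNFA, whereas Ifnar1 and Irf1 are higher with cytokines in both genotypes. Ifnb1 was read only in WT with cytokines, at 10 and 2 counts.

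The receptor chains were read in all libraries. Ifnar1 (chromosome 16, 91485238 to 91507441, plus strand), the chain that carries TYK2, had 143 and 152 CPM in resting WT, 298 and 315 in WT with cytokines, 162 and 202 in resting dKO and 373 and 434 in dKO with cytokines. All treated libraries lay above all resting ones. It rose 2.08-fold with cytokines in WT (log2 fold change 1.06, SE 0.14, adjusted p = 0.00633) and 2.22-fold in dKO (1.15, SE 0.14, adjusted p = 0.0127). Ifnar2 (chromosome 16, 91372783 to 91405589, plus strand), the chain that carries JAK1 and STAT2, had 151 and 168 CPM in resting WT, 198 and 201 in WT with cytokines, 262 and 220 in resting dKO and 311 and 309 in dKO with cytokines. The 4 groups did not overlap, and the dKO libraries were the higher ones with either treatment. Ifnar2 was 1.51-fold higher in dKO without (log2 fold change 0.59, SE 0.12, adjusted p = 0.0168) and 1.56-fold higher with cytokines (0.64, SE 0.12, adjusted p = 0.00945). Its cytokine changes of 0.32 and 0.36 on the log2 scale did not pass (adjusted p = 0.104 in WT and 0.123 in dKO). The change in WT passed in edgeR with only the WT libraries fitted (adjusted p = 0.0399).

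The receptor kinases differed from each other. Jak1 (chromosome 4, 101152367 to 101265282, minus strand), a kinase shared by many cytokine receptors, had 559 and 468 CPM in resting WT, 942 and 797 in WT with cytokines, 245 and 330 in resting dKO and 296 and 406 in dKO with cytokines. The 4 dKO libraries were the 4 lowest. Jak1 was 1.79-fold lower in resting dKO (log2 fold change -0.84, SE 0.22, adjusted p = 0.0382) and 2.48-fold lower in dKO with cytokines (-1.31, SE 0.22, adjusted p = 0.00773). The cytokine change in WT was 0.76 (SE 0.22, adjusted p = 0.0591) and that in dKO 0.29 (SE 0.22, adjusted p = 0.487), where the 2 groups overlapped. Jak1 in WT passed in DESeq2 (adjusted p = 0.00926), with only the WT libraries fitted (0.0148), and without resting dKO replicate 2 (0.0479) or dKO replicate 1 with cytokines (0.0485). Tyk2 (chromosome 9, 21104068 to 21131243, minus strand), the kinase on IFNAR1, lay between 41.8 and 61.4 CPM in all 8 libraries and passed in none of the 5 comparisons fitted over these libraries by group. Its adjusted p-values ran from 0.128 for cytokines in dKO, where the log2 change was 0.38 (SE 0.12), to 0.907 for resting dKO against WT.

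The ISGF3 subunit genes were induced in WT. Stat2 (chromosome 10, 128270559 to 128292849, plus strand) had 50.3 and 47.8 CPM in resting WT, 275 and 140 in WT with cytokines, 36.8 and 40.0 in resting dKO and 47.4 and 39.6 in dKO with cytokines. Both treated WT libraries stood above the other 6, replicate 1 at 1.96 times replicate 2. Stat2 rose 4.22-fold in WT (log2 fold change 2.08, SE 0.31, adjusted p = 0.0099), had a log2 change of 0.18 in dKO (SE 0.30, adjusted p = 0.779), and with cytokines was 4.77-fold lower in dKO than in WT (-2.25, SE 0.31, adjusted p = 0.00515). Irf9 (chromosome 14, 55603571 to 55610030, plus strand), the DNA-binding subunit, had 32.1 and 40.0 CPM in resting WT, 125 and 80.0 in WT with cytokines, 27.04 and 27.98 in resting dKO and 17.9 and 23.2 in dKO with cytokines. Its treated dKO libraries were the lowest of the 8, below the resting dKO pair. Irf9 rose 2.84-fold in WT (log2 fold change 1.51, SE 0.24, adjusted p = 0.0116), its log2 change in dKO was -0.42 (SE 0.24, adjusted p = 0.353), and with cytokines it was 4.98-fold lower in dKO (-2.32, SE 0.25, adjusted p = 0.0027).

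Irf7 (chromosome 7, 141262706 to 141266481, minus strand), which amplifies interferon production, had the largest log2 fold change of the 8 tested genes with cytokines in WT. It had 7.46 and 10.3 CPM in resting WT, 207 and 71.1 in WT with cytokines, 6.88 and 6.45 in resting dKO and 7.5 and 6.1 in dKO with cytokines. Both treated WT libraries lay far above the other 6, which overlapped between dKO with and without cytokines. Irf7 rose 15.7-fold in WT (log2 fold change 3.97, SE 0.53, adjusted p = 0.00834), and its log2 change in dKO was 0.03 (SE 0.50, adjusted p = 0.983). With cytokines it was 20.5-fold lower in dKO (-4.36, SE 0.54, adjusted p = 0.00431). The size leaned on WT replicate 1. Without that treated library the rise in WT was 2.98 on the log2 scale (adjusted p = 0.00871), the difference between genotypes -3.38 (adjusted p = 0.00645) and the rise of Stat2 1.49 (adjusted p = 0.0141).

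Irf1 (chromosome 11, 53770014 to 53778374, plus strand) rose in both genotypes. It had 44.3 and 45.2 CPM in resting WT, 257 and 168 in WT with cytokines, 43.6 and 41.5 in resting dKO and 134 and 119 in dKO with cytokines. The 4 resting libraries lay close together, and the treated dKO libraries stood between them and the treated WT libraries. Irf1 rose 4.75-fold in WT (log2 fold change 2.25, SE 0.20, adjusted p = 0.00241) and 2.98-fold in dKO (1.57, SE 0.19, adjusted p = 0.0136), and with cytokines was 1.68-fold lower in dKO (-0.75, SE 0.19, adjusted p = 0.0262). The last call was lost in 5 of the 8 fits that left out 1 library. The adjusted p was 0.0534 without either resting WT replicate, 0.0849 without treated WT replicate 1 (log2 fold change -0.41), and 0.0786 and 0.0933 without treated dKO replicate 1 or 2.

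**Figure D2:**
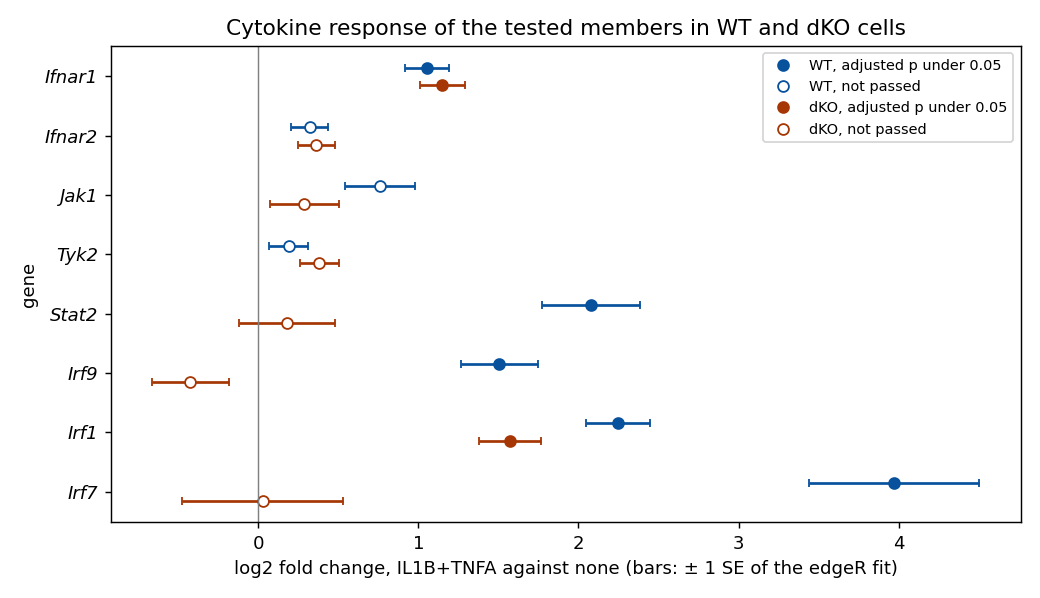
Log2 fold change with IL1B and TNFA (horizontal axis) of the 8 tested genes in WT (blue) and dKO (brown), with bars of ± 1 SE from the edgeR fit and filled points where the adjusted p was under 0.05. In WT 5 genes passed, and in dKO only Ifnar1 and Irf1 did.

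In WT, 5 of the 8 tested members rose and 0 fell with cytokines (Ifnar1, Stat2, Irf9, Irf1 and Irf7), where 9.72% of all 15698 genes were called higher and 7.69% lower, 17.4% in all (1526 higher and 1207 lower, or 1233 and 1477 with upper quartile scaling). The median log2 fold change was 1.28 over the members and -0.01 over all genes. Without resting WT replicate 1, Irf1 alone passed and the adjusted p-values of the other 4 were 0.0643 for Ifnar1, 0.0789 for Stat2, 0.0895 for Irf9 and 0.0756 for Irf7. Without resting WT replicate 2, Irf1 alone passed again, and they were 0.0504, 0.0783, 0.0612 and 0.0612. In dKO, 2 of 8 rose and 0 fell, where 3.5% of all genes were called higher and 2.06% lower, 5.55% in all. Without resting dKO replicate 1 neither passed (0.0513 for Ifnar1 and 0.0733 for Irf1). Irf1 did not pass without treated dKO replicate 1 (0.0597), and neither passed with only the dKO libraries fitted (0.138 and 0.0799).

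Between resting genotypes, 1 member was higher (Ifnar2) and 1 lower (Jak1) in dKO, against 13.4% and 9.66% of all genes, 23% in all, a share near that of the members. Neither passed without resting WT replicate 1 (adjusted p = 0.113 and 0.172), resting WT replicate 2 (0.0725 and 0.101) or resting dKO replicate 1 (0.0701 and 0.166), and Jak1 did not pass without either treated WT library (0.0627 each). With cytokines, 5 of 8 were lower in dKO (Jak1, Stat2, Irf9, Irf1 and Irf7) and 1 was higher (Ifnar2), where 15.4% of all genes were called lower and 18.6% higher, 34% in all. The median was -1.03 over the members and 0.01 over all genes. Stat2, Irf9 and Irf7 passed in all 16 alternative fits, with adjusted p-values of at most 0.0471, 0.0381 and 0.0469. Jak1 (0.0532) and Ifnar2 (0.0626) did not pass without treated WT replicate 1, nor Ifnar2 (0.056) without treated WT replicate 2. Ifnar1, with a log2 difference of 0.40 (SE 0.14, adjusted p = 0.0655), passed without resting dKO replicate 1 (0.0376) or 2 (0.042), with upper quartile scaling (0.0401) and in DESeq2 (0.0492).

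The difference between the cytokine responses, dKO minus WT, was tested as an interaction. On the log2 scale it was -3.94 for Irf7 (SE 0.71, adjusted p = 0.193), -1.93 for Irf9 (SE 0.34, adjusted p = 0.187), -1.90 for Stat2 (SE 0.42, adjusted p = 0.232) and -0.67 for Irf1 (SE 0.27, adjusted p = 0.448). For Jak1 it was -0.47 (SE 0.31), for Tyk2 0.19 (SE 0.17), for Ifnar1 0.09 (SE 0.19) and for Ifnar2 0.04 (SE 0.16). No member and none of the 15698 genes passed in edgeR (0% called), with 4 members and 1683 genes at an unadjusted p under 0.05. DESeq2 called 391 genes, among them Irf7 (adjusted p = 3.62e-07), Irf9 (9.17e-05) and Stat2 (0.00157) and no other member. Without treated WT replicate 2, edgeR called Irf7 (-4.51, adjusted p = 0.025) and Stat2 (-2.30, adjusted p = 0.0276). Without treated WT replicate 1 these were -2.95 (adjusted p = 0.247) and -1.31 (adjusted p = 0.249).

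The 2 treated WT libraries differed from each other in the genes of the ISGF3 loop. Replicate 1 stood above replicate 2 by 2.92 times in Irf7, 1.96 in Stat2, 1.56 in Irf9 and 1.52 in Irf1, and by 3.16 in Ifit1 and 3.93 in Cxcl10. The ratio was 0.948 for Ifnar1, 0.984 for Ifnar2, 1.18 for Jak1 and 1.15 for Tyk2. The library with more Ifnb1 counts was thus also the one with more of these transcripts, in 2 libraries and with no test.

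Per kilobase of exon, the order of the members was not the same in the 4 groups. In resting WT, Jak1 led with 71.0 CPM per kb, followed by Ifnar2 (48.0), Ifnar1 (24.8), Irf1 (11.3), Stat2 (8.28), Irf9 (6.69), Tyk2 (6.68) and Irf7 (2.35). With cytokines in WT, Jak1 stood at 120 CPM per kb, and Ifnar2 (59.9), Irf1 (53.5), Ifnar1 (51.6), Irf7 (36.9) and Stat2 (35.0) followed, where each neighbour from Ifnar2 to Stat2 overlapped the next. In dKO cells Ifnar2 led in both conditions, with 72.4 CPM per kb without and 93.2 with cytokines. Without cytokines Jak1 (39.8 CPM per kb) and Ifnar1 (30.6) came next and overlapped, and with them Ifnar1 (67.9) stood above Jak1 (48.6). In both dKO groups Irf7 was the lowest member above 0 (1.77 and 1.8 CPM per kb).

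**Figure D3:**
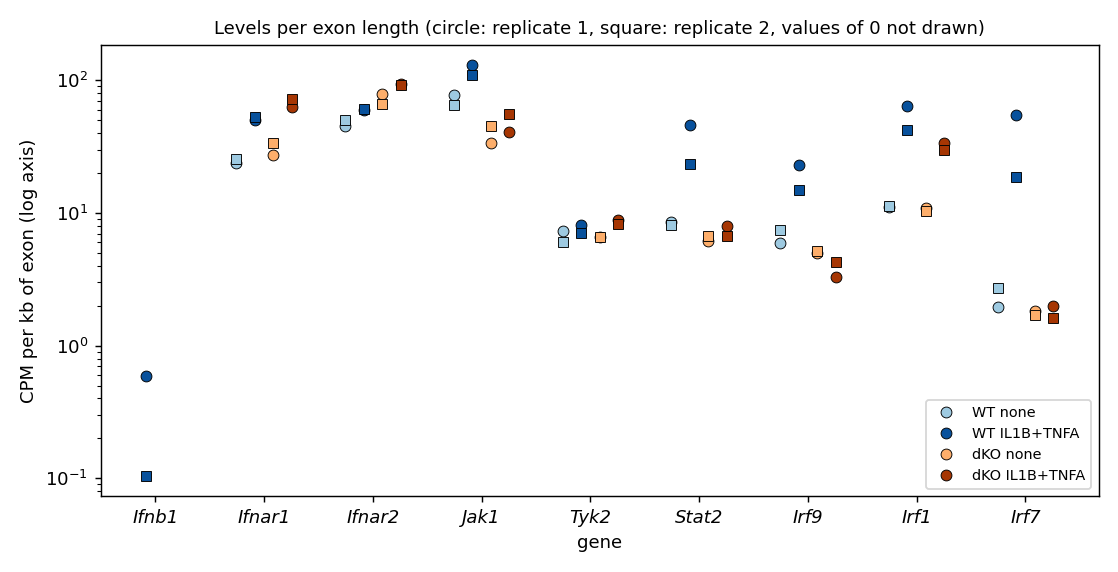
CPM per kb of exon (log axis) of each member in each library, coloured by group, with values of 0 left out. Jak1 is the highest member in both WT groups and Ifnar2 in both dKO groups, and Irf7 moves from the lowest tested member to 36.9 CPM per kb in WT with cytokines.

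Across the 8 libraries, log2 CPM of Stat2, Irf9 and Irf7 moved together, with Pearson's r of 0.99 for Stat2 with Irf7, 0.95 for Irf9 with Irf7 and 0.94 for Stat2 with Irf9. Irf1 was less close to Stat2 (0.77), Irf7 (0.75) and Irf9 (0.54), and its value with Ifnar1 was 0.82. Of 13177 genes with a mean of at least 1 CPM, the 3 most like Irf7 were Parp3 (0.996), Trim30a (0.994) and Parp12 (0.994), and those most like Stat2 were Usp18 (0.997), Parp3 (0.996) and Parp12 (0.994). Irf9 was most like Pdss1 (0.994), Gm20559 (0.988) and Phf11c (0.985), and Irf1 most like Scfd1 (0.997), Uggt1 (0.995) and Hspa5 (0.994), the last 2 encoding a glucosyltransferase and a chaperone of the endoplasmic reticulum. All these values describe 8 libraries in 4 groups and carry no test.

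The rest of the pathway was read through 8 lists of 104 genes, all in the table and 83 tested, of which 7 lists are described. Counts of their members are to be read against the shares of all genes called, 17.4% for cytokines in WT, 5.55% for cytokines in dKO, 23% between resting and 34% between treated genotypes. The 8 other JAK and STAT genes had 3 higher and 1 lower in WT with cytokines, 1 higher in dKO, and, in dKO against WT, 2 higher at rest and 2 higher and 2 lower with cytokines, of which the 2 of 8 at rest is near the 23% of all genes. Jak2, a kinase of the interferon-γ receptor, rose in both genotypes, 5.51-fold in WT (adjusted p = 0.0011) and 4.43-fold in dKO (adjusted p = 0.00445), and was 3.05-fold higher in dKO at rest (adjusted p = 0.00261). Its level in dKO with cytokines was 1418 and 1187 CPM, against 577 and 485 in WT. Jak3 was 1.51-fold higher in dKO at rest (adjusted p = 0.00975). Jak2 thus lay in the opposite direction to Jak1 between genotypes.

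Among 8 other receptor chains, 2 were higher and 1 lower with cytokines in WT, against 17.4% of all genes, and 1 was lower in dKO, against 5.55%. Ifngr1, an interferon-γ receptor chain, rose 1.84-fold in WT (adjusted p = 0.0203), while Lifr, a chain of the leukaemia inhibitory factor receptor, fell 3.55-fold there (adjusted p = 0.0152), and Il6ra fell 2.97-fold in dKO (adjusted p = 0.039). Osmr, the oncostatin M receptor gene, was 2.88-fold higher in dKO at rest (adjusted p = 0.00129) and 2.61-fold with cytokines (adjusted p = 0.00127), where Lifr was also higher (2.02-fold, adjusted p = 0.0487). Of 5 tested other IRF genes, only Irf5 passed. This gene rose 5.56-fold in WT (adjusted p = 0.0142) and 7.66-fold in dKO (adjusted p = 0.0253). It was 3.55-fold lower in dKO at rest (adjusted p = 0.0392) and 2.58-fold lower with cytokines (adjusted p = 0.0448).

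Of 18 inhibitors, 4 rose and 1 fell in WT, 0 rose and 1 fell in dKO, and with cytokines 4 were higher and 3 lower in dKO than in WT. The shares called in dKO (1 of 18) and between treated genotypes (7 of 18) are near those of all genes, 5.55% and 34%. Usp18, which blocks the receptor at IFNAR2 and is itself an ISGF3 target, had 77.3 and 20.2 CPM in treated WT and between 0.67 and 1.66 CPM in the other 6 libraries. It rose 35.6-fold in WT (adjusted p = 0.0097) and with cytokines was 52.7-fold lower in dKO (adjusted p = 0.00525). Trim21 rose 2.77-fold in WT (adjusted p = 0.0276), and Socs2 fell 1.61-fold in dKO (adjusted p = 0.017). Ptpn2, a phosphatase that acts on JAK1, was 3.38-fold higher in dKO at rest (adjusted p = 0.00658) and 3.35-fold with cytokines (adjusted p = 0.00475).

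Of 14 genes for steps that switch on Ifnb1, 5 rose and 1 fell in WT, 3 rose in dKO, and in dKO against WT 3 were lower at rest and 5 lower and 1 higher with cytokines. The 3 of 14 at rest is near the 23% of all genes called, and the 6 of 14 between treated genotypes stands beside 34%. The RNA sensor genes Ifih1 and Tlr3 rose 4.86-fold and 3.15-fold in WT (adjusted p = 0.0105 and 0.0112), and with cytokines were 4.25-fold and 5.15-fold lower in dKO (adjusted p = 0.00791 and 0.00317). Tlr3 was also 2.07-fold lower in dKO at rest (adjusted p = 0.0336). Jun, a component of AP-1, was 2.6-fold lower in dKO at rest (adjusted p = 0.0221) and rose 2.96-fold there with cytokines (adjusted p = 0.0375). Ikbke, a kinase that activates IRF3, rose in both genotypes, 2.23-fold in WT (adjusted p = 0.00363) and 2.12-fold in dKO (adjusted p = 0.0104), from 115 and 144 to 271 and 279 CPM in the latter.

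The known targets of ISGF3 were read last. Of 15 ISGF3 targets, 14 rose in WT (median log2 fold change of the list 4.97, against -0.01 over all genes) and 0 passed in dKO, where the median was 0.19, against 9.72% and 3.5% of all genes called higher. The log2 changes in dKO ran from -1.14 for Ifit2 (adjusted p = 0.315) to 2.86 for Mx1 (adjusted p = 0.181). All 15 were lower in dKO with cytokines (median -4.85, with 15.4% of all genes called lower). At rest 2 of the 15 were lower, a share near the 9.66% of all genes called lower. These were Bst2 (3.13-fold, adjusted p = 0.0228) and Ifi44 (3.03-fold, adjusted p = 0.0428). Ifit1 rose from 2.95 and 3.98 CPM to 316 and 100 CPM in WT, and had 2.73 and 1.46 CPM in dKO with cytokines. Mx1, an antiviral GTPase gene, had 39.8 and 16.2 CPM in treated WT against 1.18 and 0.751 in treated dKO. Ifit3 had 294.5 and 86.3 CPM in treated WT and 1.27 and 0.883 in treated dKO, 176-fold lower (adjusted p = 0.00408), and Rsad2 had 202 and 62.0 against 1.05 and 1.1 CPM, 122-fold lower (adjusted p = 0.00254). The WT levels of Ifit3, Rsad2, Ifit1 and Mx1 were all higher in replicate 1, so the folds lean on that library. In edgeR none of the 15 ISGF3 targets passed as an interaction.

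**Figure D4:**
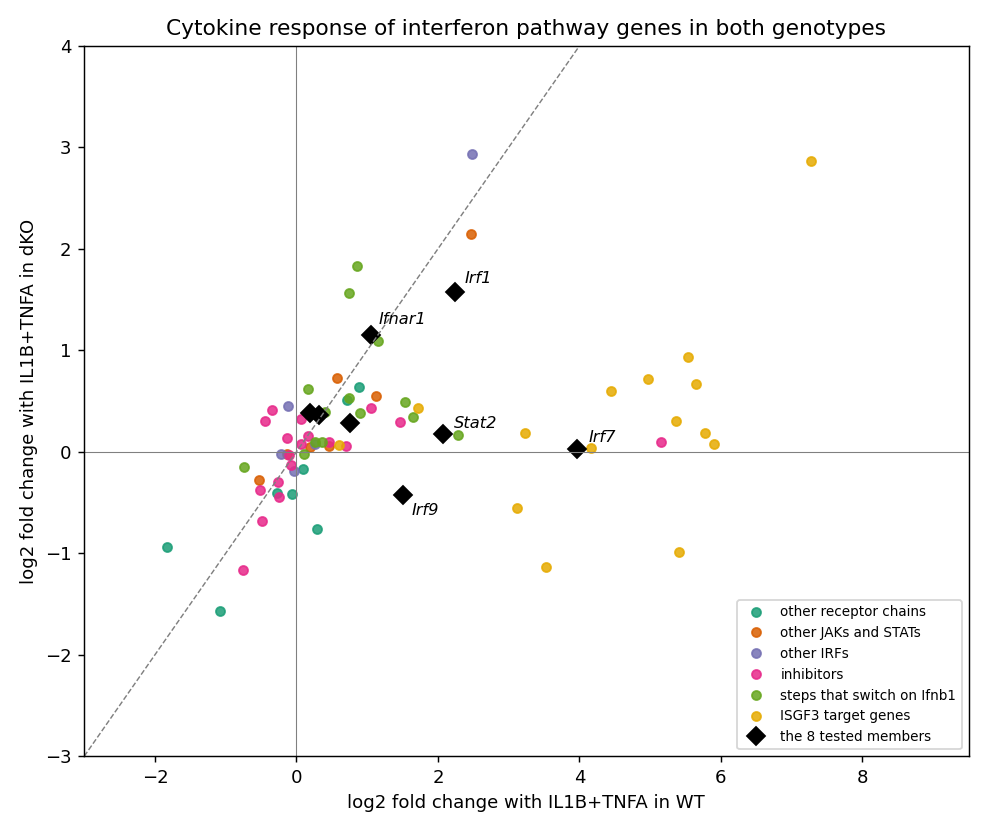
Log2 fold change with IL1B and TNFA in WT (horizontal axis) against that in dKO (vertical axis) for 67 tested pathway genes of 6 lists, coloured by list, and the 8 tested members (black diamonds), with a dashed line of equal change. Ifnar1 lies near the dashed line and Irf1 below it. Stat2, Irf9 and Irf7 lie further below it, at 0.18, -0.42 and 0.03 on the vertical axis. The ISGF3 targets run from -1.14 (Ifit2) to 2.86 (Mx1) on that axis, with a median of 0.19, and none passed in dKO.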

How the data were processed

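Polyadenylated RNA was sequenced from sorted CD31+ VE-cadherin+ CD45- cells, per the labels' protocols. The authors deposited raw read counts per Ensembl gene. FastQC 0.11.5, STAR 2.7.6a and the build GRCm38 stand in the submitters' processing notes without roles. The counting program is not given in the sources used here, nor is its use of strand. The labels name 2 kits, 1 of them stranded, and not which library had which. No member shares 10% of its exon bases with another gene, and the most is 9.46%, for Ifnar2.

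Of 52636 identifiers, 52403 carried a symbol. Coordinates are from GENCODE M21. All 8 libraries entered 1 model in edgeR 4.0.16 (R 4.3.3): filterByExpr, TMM, a coefficient for each group and a robust quasi-likelihood fit with 4 residual degrees of freedom, two-sided and Benjamini-Hochberg adjusted. The script was tested on simulated data. DESeq2 1.42.0 was an alternative. Floors are 3 counts over a group and intervals 95% Poisson, for counting error only.

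The members, lists and alternatives were chosen with earlier results of these data known. Named were all members, up to 2 genes with the largest change past the threshold and at least 1 CPM for each list and comparison, and the 3 genes most like each of 4 members. Some genes and 1 list that the rule names are not reported here. Ratios between the treated WT replicates (Cxcl10 among them) and Ikbke in WT fall outside the rule and were chosen after their values were seen. The same holds for the single fibroblast and endothelial markers, and for Ifit2, Mx1 and Ifit1 in dKO. Alternatives were other scaling, no filter, only the libraries compared, the replicate block, libraries left out and DESeq2.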

Additional observations from a re-analysis of the deposited data

How the results depend on the processing

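The 8 tested members gave 40 log2 fold changes, of which 15 passed. Of 632 values under alternatives, 554 kept direction and side of the threshold, 46 no longer passed, 22 newly passed and 10 changed sign, none of the last from a call. Only 3 of the 15 calls held in every fit, those of Stat2, Irf9 and Irf7 between treated genotypes.

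Leaving out 1 library at a time, the members called ran from 1 to 6 for cytokines in WT, 0 to 2 for cytokines in dKO, 0 to 2 between resting and 3 to 7 between treated genotypes, and 0 to 2 for the interaction. The genes called ran from 413 to 2749, 130 to 731, 527 to 3783, 1621 to 5523 and 0 to 41. A group left with 1 library was assumed to vary like the others.

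With only the libraries compared, 0 members and 2266 genes were called between resting genotypes, 4585 genes for cytokines in WT, and 0 members and 1 gene for cytokines in dKO (main counts 3617, 2733 and 872). DESeq2 called 1852 genes for cytokines in dKO, and 3 members and 391 genes for the interaction, where no filter on low counts gave 75 genes. With dKO replicate 2 left out in both treatments, 5602 genes were called between resting genotypes, 4417 for cytokines in WT, 1 member and 1339 genes for cytokines in dKO, and 193 for the interaction. Without both WT replicate 1 libraries, chosen after seeing the data, 0 members and 103 genes were called between resting genotypes, 0 members and 0 genes for cytokines in WT, 0 members and 1 gene for cytokines in dKO, and 3 members and 322 genes between treated genotypes. The last fit leaves 1 library in each WT group.

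With the replicate block, 5943 genes were called for cytokines in WT, 5 members and 3769 genes for cytokines in dKO, and 947 genes and 0 members for the interaction. Jak1 and Ifnar2 passed in WT (adjusted p = 0.000357 and 0.0268) and Ifnar2, Jak1 and Tyk2 in dKO (0.0238, 0.0474 and 0.0129), as did Ifnar1 between treated genotypes (0.0259). Deviations from the group means of same-numbered libraries correlated at 0.43 within WT and 0.69 within dKO and at 0.02 to 0.13 across genotypes. The labels do not say that a number marks a shared culture, and 2 pairs a genotype do not settle it.

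Changes of sign were small. Tyk2 between resting genotypes stood at 0.0043 with upper quartile scaling, at 0.105 without both WT replicate 1 libraries and, with 1 library left out, between -0.148 and 0.104 (without resting WT replicate 2 or 1). Irf7 for cytokines in dKO stood at -0.0106 with upper quartile scaling and between -0.13 and 0.17 with 1 library left out (treated dKO replicate 1 or 2), below 0 also without resting dKO replicate 2. In the interaction Ifnar1 ran from -0.0365 to 0.262 (without resting dKO replicate 1 or 2) and Ifnar2 from -0.077 to 0.194 (without resting dKO replicate 2 or 1), below 0 also without resting WT replicate 2, and stood at -0.0491 with both dKO replicate 2 libraries left out. The cause of these changes was not tested. With only the libraries compared, no interaction can be fitted. Depth limits Ifnb1, whose 12 counts come from 2 libraries.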
